A study of Homo sapiens with 15 samples.

Results

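The SR protein and hnRNP genes encode the RNA-binding proteins that decide which exons of a pre-mRNA are kept. They were taken by name as 45 of the 20248 gene symbols in the footprint count table: 12 SRSF genes, 26 symbols that begin with HNRNP, TRA2A and TRA2B, PTBP1 and PTBP3, PCBP1 and PCBP2, and SYNCRIP. All 45 were also among the 56475 symbols of the total RNA table. The cells were MCF-10A, a non-tumorigenic human mammary epithelial line, which had received 20 nM control siRNA or 20 nM siRNA against eIF3e for 72 h. eIF3e is a subunit of eIF3, the complex that prepares the small ribosomal subunit for initiation. For each siRNA, total RNA was sequenced in 3 libraries and ribosome footprints, the fragments of 26 to 34 nt that 80S ribosomes protect from RNase I, in 3 more. Single libraries held the footprints of all 80S ribosomes of a lysate, of ribosomes bound by eIF3B and of ribosomes bound by eIF3E, and their labels name no siRNA. No source used here gives the siRNA's sequence, and a single line was studied.

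SR proteins carry an RNA recognition motif and a domain rich in arginine and serine, bind enhancers in exons and recruit the splicing machinery to weak splice sites. The hnRNPs coat nascent transcripts through RRM, quasi-RRM or KH domains, often silence exons that SR proteins favour, and also act on the export, stability and translation of mature mRNA. Many of these genes control their own mRNA through poison exons, alternative exons with a premature stop codon that send the transcript to nonsense-mediated decay, so that mRNA level and ribosome occupancy are both points of control.

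Depth ran from 4263767 to 5646270 counts in total RNA, from 1889543 to 3447360 in footprints of siRNA-treated cells and from 1224606 to 1630872 in the single libraries. The siRNA target EIF3E fell in total RNA from 197, 217 and 187 to 20.5, 21.3 and 25.8 CPM, counts scaled to library size with TMM factors, a log2 change of -3.15 ± 0.12 (SE, n = 3 per group, edgeR quasi-likelihood test, adjusted p = 1.61e-10). Its footprints fell by 2.88 ± 0.16 on the log2 scale (adjusted p = 5.3e-14, same test). Genes of the footprint table took 64.0 to 71.2% of the total RNA counts after control siRNA and 73.1 to 76.8% after eIF3e siRNA. All 8 epithelial markers were tested, and their summed footprints were 12455 to 13120 CPM after control siRNA and 9399 to 9753 after eIF3e siRNA. Their summed total RNA was 3769 to 4134 and then 2962 to 3594 CPM. In footprints 5 were called lower, the keratins KRT5, KRT14, KRT17, KRT18 and KRT8, and EPCAM, CDH1 and TP63 were not called. That is 62.5% called, beside 18.5% of all genes. In total RNA EPCAM was called higher and KRT14 lower. Of 12 markers of other cell types only COL1A1 and DCN had enough counts to test, and CD3E, COL1A2 and INS were among those at 0 in all 12 siRNA libraries. DCN, a fibroblast proteoglycan, rose in both assays, and the summed level of the 12 markers was 32.2 to 41.1 CPM after control siRNA and 51.4 to 56.1 after eIF3e siRNA in total RNA, and 68.8 to 91.1 and 138 to 164 in footprints. Whether the shares or markers take part in the results below was not tested. The labels do not say that libraries of a group came from separate cultures, so the p-values measure the spread between these libraries, which may be technical.

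After eIF3e siRNA, members rose and fell in total RNA, whereas every member that changed in footprints fell. In total RNA, 11 of the 38 testable genes changed. HNRNPH3, SRSF7, TRA2B and SRSF2 rose, and HNRNPA1, HNRNPK, PTBP3, HNRNPH2, PCBP2, PCBP1 and HNRNPUL1 fell. In footprints, 9 of 37 changed and all 9 fell: HNRNPA1, HNRNPC, PTBP3, PCBP2, SRSF5, HNRNPK, PCBP1, PTBP1 and HNRNPF. The changes ran from -0.79 to 0.84 in total RNA and from -1.02 to 0.48 in footprints on the log2 scale.

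The counts were set against those of all genes. In total RNA 28.9% of the members were called at an adjusted p under 0.05, against 37.5% of the 11719 genes tested (18.8% higher, 18.7% lower). Their median log2 change was -0.06, against 0.02 over all genes. With total-count scaling in place of TMM, 10 members were higher and 5 lower and their median was 0.10, against 0.18 over all genes, of whose calls 70.4% were higher in place of 50.1%. In footprints 24.3% of the members were called, against 18.5% of 9228 genes, and the 9 lower calls stand beside a background of 8.46% lower, while no member rose against a background of 10.0% higher. The median footprint change of the members was -0.24, with 30 of 37 below 0, against a median of -0.01 and 50.4% below 0 over all genes. With DESeq2, 0 members rose and 9 fell in footprints, beside 916 higher and 802 lower of 9228 genes. At an unadjusted p under 0.05 in edgeR 1 member was higher and 14 lower of 37, beside 29.8% of all genes. By the plain criterion that the 3 libraries of each siRNA do not overlap, 7 members were higher and 9 lower in total RNA (background 49.7% in all, 25.4% and 24.2% by direction), and 2 were higher and 13 lower in footprints (background 33.7% in all, 17.1% and 16.5%). In bulk samples, less RNA per cell and fewer cells that carry it cannot be told apart.

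**Figure D1:**
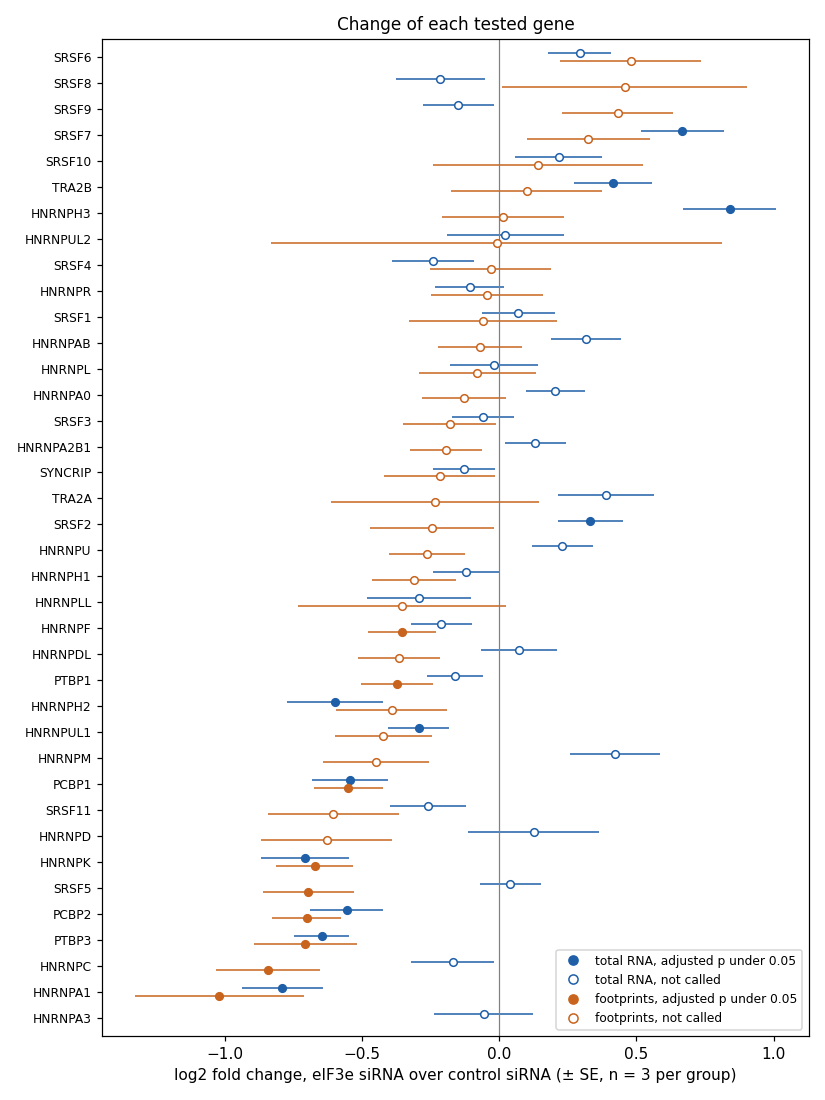
Log2 fold change after eIF3e siRNA (± SE, 3 libraries per group) of each gene testable in total RNA (blue) or footprints (orange), sorted by the footprint change; filled points passed an adjusted p of 0.05. The filled orange points, 9 in all, lie to the left of 0, while the filled blue points lie on both sides.

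Split by family, the SRSF and TRA2 genes gave other counts than the remaining genes. Of 13 SRSF and TRA2 genes tested, 3 rose and 0 fell in total RNA, and in footprints 0 rose and 1, SRSF5, fell. Of the hnRNP, PTBP, PCBP and SYNCRIP genes, 1 rose and 7 fell of 25 in total RNA, and 0 rose and 8 fell of 24 in footprints, where 23 of 24 had a value below 0 and the median was -0.36. The median footprint change of the SRSF and TRA2 genes was -0.03. Of the SRSF and TRA2 genes 23.1% were called in total RNA and 7.69% in footprints, and of the remaining genes 32% and 33.3%. Of all genes, 37.5% were called in total RNA (18.8% higher, 18.7% lower). In footprints 18.5% of all genes were called (10.0% higher, 8.46% lower), and 50.4% had a value below 0. The difference between these classes was not tested.

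The share of all counts that these genes take was also read. The 31 hnRNP, PTBP, PCBP and SYNCRIP genes took 0.368, 0.364 and 0.436% of the footprints after control siRNA and 0.278, 0.285 and 0.298% after eIF3e siRNA. The groups do not overlap, and the third control library stands above the other two. Their share of total RNA was 0.133, 0.167 and 0.149% after control siRNA and 0.143, 0.147 and 0.147% after eIF3e siRNA, with the treated values inside the control range. The 14 SRSF and TRA2 genes took 0.058, 0.0642 and 0.0802% of footprints and then 0.0623, 0.0571 and 0.0599%, which overlap. Their share of total RNA was 0.0343, 0.0428 and 0.0406%, and 0.0469, 0.0456 and 0.0497% after eIF3e siRNA, with no overlap. A share of all counts moves with the library's makeup, and genes of the footprint table as a whole took a larger share of total RNA after eIF3e siRNA, as given above, also with no overlap. Without the third control footprint library 0 members rose and 7 fell in footprints, beside 879 higher and 821 lower of 9605 genes.

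**Figure D2:**
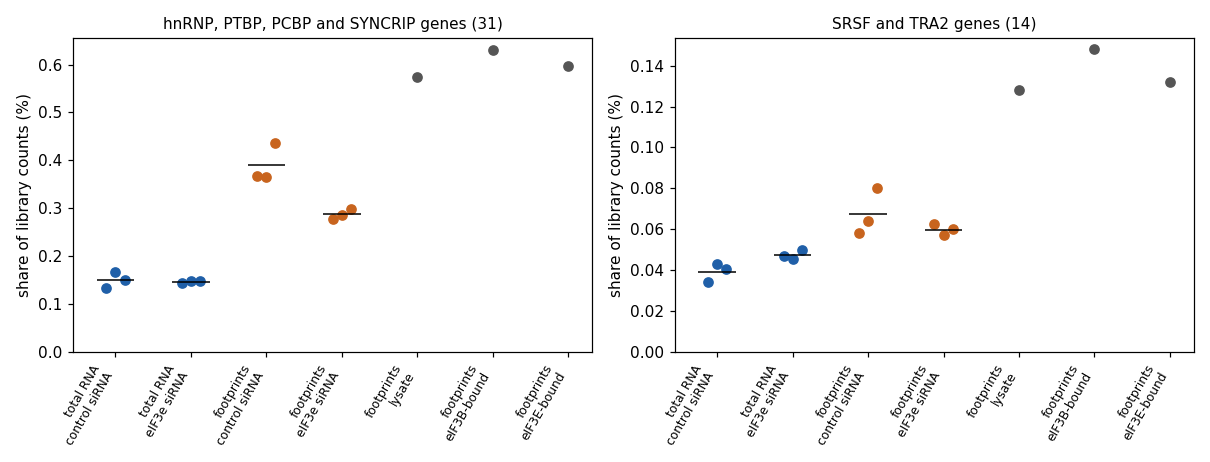
Share of all counts of a library (percent) taken by the 31 hnRNP, PTBP, PCBP and SYNCRIP genes (left) and the 14 SRSF and TRA2 genes (right); each point is 1 library and lines are means of 3. The hnRNP share of footprints is 0.364 to 0.436% after control siRNA and 0.278 to 0.298% after eIF3e siRNA, while in total RNA the groups overlap.

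The poly(C)-binding proteins fell in both assays by similar amounts. PCBP1 and PCBP2 carry 3 KH domains that bind C-rich RNA, stabilise long-lived mRNAs and assist internal ribosome entry, and PCBP1 is an intronless copy of a PCBP2 transcript. PCBP2 footprints were 394, 320 and 357 CPM after control siRNA and 224, 221 and 214 CPM after eIF3e siRNA. Its total RNA was 97.2, 77.8 and 70.3 CPM and then 56.3, 62.5 and 48.0 CPM. In both assays every treated library lies below every control library. PCBP2 fell by 0.70 ± 0.13 in footprints and by 0.56 ± 0.13 in total RNA on the log2 scale (SE, n = 3 per group, edgeR, adjusted p = 0.000114 and 0.00395). PCBP1 footprints were 341, 319 and 293 CPM and then 213, 209 and 230 CPM. Its total RNA was 129, 92.9 and 86.7 CPM and then 67.8, 75.8 and 67.5 CPM. The groups again do not overlap, and the changes were -0.55 ± 0.13 in footprints and -0.54 ± 0.14 in total RNA (adjusted p = 0.00179 and 0.00622). PCBP1 overlaps the antisense gene PCBP1-AS1, which had 355 counts beside 2465 for PCBP1 over the 6 total RNA libraries, and no source used here says whether reads were counted by strand.

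The start regions of these paralogs are shown because both genes fell in both assays, although they lie on different chromosomes. Each stretch runs from 80 bases before to 20 bases from the annotated start (RefSeq, GRCh38.p14), PCBP1 at chr2:70087397-70087496 and PCBP2 at chr12:53452022-53452121, both on the plus strand. Capitals mark runs of at least 8 bases found in the same order in both.
PCBP1: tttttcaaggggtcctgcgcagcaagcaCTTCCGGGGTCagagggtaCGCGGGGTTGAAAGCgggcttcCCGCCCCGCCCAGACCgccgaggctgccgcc
PCBP2: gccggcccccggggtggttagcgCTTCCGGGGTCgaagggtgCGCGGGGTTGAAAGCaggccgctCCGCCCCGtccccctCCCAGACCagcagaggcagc
The 4 shared runs cover 42 of the 100 bases. The longest, CGCGGGGTTGAAAGC, has 15 bases, and CTTCCGGGGTC has 11. This is a description of 2 sequences and no result on what acts at them.

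HNRNPK, a KH-domain protein that also binds C-rich RNA and works in transcription, splicing and translation, also fell in both assays. Its footprints were 258, 200.3 and 257.5 CPM after control siRNA and 152, 147 and 149.5 CPM after eIF3e siRNA. Total RNA was 83.6, 89.4 and 70.04 CPM and then 45.6, 63.2 and 40.3 CPM. No treated library reached the lowest control in either assay. HNRNPK fell by 0.67 ± 0.14 in footprints and by 0.71 ± 0.16 in total RNA (edgeR, adjusted p = 0.000619 and 0.00452). It shares its locus with RMI1, which had 233 counts beside 1879 for HNRNPK in total RNA.

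The polypyrimidine tract-binding proteins repress exons with pyrimidine-rich flanks, and PTBP3 is the paralog first described in blood cells. PTBP3 total RNA was 197, 229 and 228 CPM after control siRNA and 136, 141 and 141 CPM after eIF3e siRNA. Its footprints were 121, 103 and 107 CPM and then 50.7, 87.0 and 65.7 CPM. Both pairs of groups are separate, with a wider spread among the treated footprint libraries. PTBP3 fell by 0.65 ± 0.10 in total RNA and by 0.71 ± 0.19 in footprints (edgeR, adjusted p = 0.000105 and 0.00716). Without the first eIF3e siRNA library the footprint change was -0.54, with an adjusted p of 0.0664. PTBP1, the form of most dividing cells, had footprints of 365, 333 and 313 CPM and then 258, 223 and 300.3 CPM. Those groups do not overlap, and the change was -0.37 ± 0.13 (adjusted p = 0.0458). Leaving out 1 of control libraries 1 and 2, or 1 of eIF3e siRNA libraries 1 and 2, ended the PTBP1 call (adjusted p 0.119 to 0.244). Its total RNA, 145, 152 and 172 CPM and then 149, 136 and 134 CPM, overlapped (-0.16 ± 0.10, adjusted p = 0.233).

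Among the hnRNP A/B genes, HNRNPA1 fell and its relatives were not called. HNRNPA1 is a splicing silencer that antagonises SRSF1 at splice-site choice. Its total RNA was 33.0, 27.97 and 25.6 CPM after control siRNA and 15.5, 18.2 and 16.3 CPM after eIF3e siRNA. Footprints were 33.4, 30.9 and 62.0 CPM and then 21.1, 14.2 and 26.5 CPM. The groups do not overlap, and the third control footprint library stands well above the rest. HNRNPA1 fell by 0.79 ± 0.15 in total RNA and by 1.02 ± 0.31 in footprints (edgeR, adjusted p = 0.000554 and 0.0181). Without that control library the footprint change was -0.65 (adjusted p = 0.2), and without the second treated library -0.82 (adjusted p = 0.0955), so both leave-outs ended the footprint call. HNRNPA1 has 75 numbered pseudogenes in the total RNA table, 53 of them with counts, which held 203 counts beside 651 for the gene itself, so its level is uncertain. With those counts added, an alternative chosen after seeing the data, HNRNPA1 was still called lower in total RNA.

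HNRNPA2B1, which binds RNA carried in transport granules, had 294, 283 and 348 CPM of footprints and then 235, 294 and 280 CPM, which overlap (-0.19 ± 0.13, adjusted p = 0.353). Its total RNA, 62.4, 74.2 and 63.7 CPM and then 67.4, 77.4 and 74.9 CPM, overlaps too (0.13 ± 0.11, adjusted p = 0.367). HNRNPA0, an mRNA-stability factor of the same fold, had 141, 115 and 125.5 CPM and then 116, 120 and 113 CPM (-0.13 ± 0.15, adjusted p = 0.636). Neither gene passed in either assay. HNRNPA3 had 345 counts over the 6 total RNA libraries but 0 footprints in all 9 footprint libraries, where 3 counts would be 0.87 to 2.45 CPM for counting error only. The total RNA table lists 16 numbered pseudogenes of HNRNPA3, and no source used here says how reads that match several places were counted, so the 0 sets no limit on its footprint level. The gene was tested in total RNA only (-0.06 ± 0.18, adjusted p = 0.827).

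HNRNPC, which binds uridine tracts as a tetramer and keeps cryptic exons out, fell in footprints and was not called in total RNA. Its footprints were 84.7, 105 and 83.7 CPM after control siRNA and 52.0, 49.9 and 50.5 CPM after eIF3e siRNA. Its total RNA was 58.5, 54.4 and 44.7 CPM and then 43.9, 57.9 and 38.7 CPM. The footprint groups are far apart and the total RNA groups overlap. The footprint change was -0.84 ± 0.19 (edgeR, adjusted p = 0.00152) and that of total RNA -0.17 ± 0.15 (adjusted p = 0.399). The difference between the assays, the change in footprints per mRNA, was -0.67 ± 0.23 and did not pass (adjusted p = 0.224, edgeR interaction). HNRNPCL1 to HNRNPCL4, its intronless relatives, had at most 3 counts each in total RNA and 0 footprints.

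The hnRNP H/F proteins bind runs of G through quasi-RRM domains, and their 4 genes did not change alike. HNRNPH3 rose in total RNA from 10.2, 11.1 and 11.2 CPM to 16.6, 20.0 and 21.6 CPM. Its footprints were 45.2, 45.0 and 61.0 CPM and then 44.7, 52.4 and 55.3 CPM. The total RNA groups are separate and the footprint groups overlap. The changes were 0.84 ± 0.17 in total RNA (edgeR, adjusted p = 0.00104) and 0.01 ± 0.22 in footprints (adjusted p = 0.976). HNRNPH3 shares its locus with RUFY2, which had 187 counts beside 430.

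HNRNPH2, the X-linked paralog, fell in total RNA from 17.4, 17.8 and 16.2 CPM to 13.5, 10.4 and 10.1 CPM (-0.60 ± 0.18, edgeR, adjusted p = 0.0134). Leaving out control library 2, or either of eIF3e siRNA libraries 2 and 3, ended this call (adjusted p 0.0501 to 0.059), as did total-count scaling (adjusted p = 0.0927). HNRNPH2 footprints were 65.2, 70.9 and 63.5 CPM and then 44.3, 56.0 and 51.7 CPM, without overlap but not called (-0.39 ± 0.20, adjusted p = 0.194). HNRNPF footprints were 310, 323 and 336 CPM and then 236, 262 and 259 CPM. They do not overlap, and the change was -0.36 ± 0.12 (adjusted p = 0.041). The HNRNPF call was lost without control library 2 or 3 and without any 1 of the eIF3e siRNA libraries (adjusted p 0.054 to 0.165). Its total RNA, 158, 193 and 153.5 CPM and then 139, 141.5 and 155.5 CPM, overlaps (-0.21 ± 0.11, adjusted p = 0.143). HNRNPH1 had 182.5, 156 and 214 CPM of footprints and then 124, 148 and 174 CPM, which overlap (-0.31 ± 0.15, adjusted p = 0.173).

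HNRNPUL1, a relative of the nuclear scaffold protein HNRNPU that acts at DNA breaks, fell in total RNA from 71.0, 82.2 and 68.0 CPM to 57.8, 57.4 and 65.3 CPM. The groups lie close but do not overlap (-0.29 ± 0.11, edgeR, adjusted p = 0.0485). Without control library 2 or any 1 of the eIF3e siRNA libraries the call was lost (adjusted p 0.0513 to 0.201), as it was with total-count scaling (adjusted p = 0.456). HNRNPUL1 footprints were 109.6, 90.4 and 115 CPM and then 68.6, 93.5 and 73.4 CPM, which overlap (-0.42 ± 0.18, adjusted p = 0.101). HNRNPU itself had 95.8, 120 and 120 CPM and then 125, 139 and 130.5 CPM of total RNA, without overlap and not called (0.23 ± 0.11, adjusted p = 0.115). HNRNPUL2 had few footprints, 0.319 to 10.2 CPM after eIF3e siRNA, and a standard error of 0.82.

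The remaining hnRNP genes were called in neither assay in the main fits. Under alternatives, HNRNPDL footprints were called lower in 2 of 12 and HNRNPD footprints in 1 of 12 (edgeR, lowest adjusted p 0.0433 and 0.0415). In total RNA HNRNPAB was called higher in 5 of 14 and HNRNPM in 6 of 14 (edgeR, lowest adjusted p 0.0191 and 0.0104). HNRNPM footprints were called lower in 1 of 12 (edgeR, adjusted p = 0.0252). HNRNPDL, a relative of HNRNPD, had footprints of 182, 145 and 148 CPM after control siRNA and 123, 120 and 126 CPM after eIF3e siRNA, without overlap (-0.37 ± 0.15, edgeR, adjusted p = 0.0881). HNRNPAB, of the same group, had total RNA of 40.9, 49.4 and 40.4 CPM and then 46.5, 55.4 and 61.0 CPM, which overlap (0.32 ± 0.13, adjusted p = 0.0612). HNRNPL and HNRNPLL, which bind CA repeats, and HNRNPR and SYNCRIP, a pair of close paralogs, had footprint changes of -0.08 ± 0.21, -0.35 ± 0.38, -0.04 ± 0.20 and -0.22 ± 0.20.

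Of the SR protein genes, SRSF7 had the largest rise in total RNA. SRSF7, which links splicing to mRNA export and carries a zinc knuckle, had 16.1, 19.2 and 15.5 CPM after control siRNA and 23.1, 28.6 and 29.2 CPM after eIF3e siRNA. Footprints were 39.5, 37.3 and 54.2 CPM and then 54.9, 58.6 and 50.2 CPM. The total RNA groups are separate, whereas 1 control footprint library lies among the treated ones. SRSF7 rose by 0.67 ± 0.15 in total RNA (edgeR, adjusted p = 0.00251), and its footprints changed by 0.32 ± 0.22 (adjusted p = 0.366).

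SRSF2 and TRA2B also rose in total RNA. SRSF2, which defines exons and is mutated in myeloid disease, went from 40.0, 40.3 and 49.5 CPM to 53.4, 50.8 and 58.8 CPM (0.33 ± 0.12, edgeR, adjusted p = 0.0373). TRA2B, a splicing activator that binds GAA-rich exons, went from 29.2, 34.7 and 23.0 CPM to 38.2, 39.2 and 38.9 CPM (0.41 ± 0.14, adjusted p = 0.0304). In each case the groups do not overlap. The SRSF2 call was lost without control library 1 or 2 or eIF3e siRNA library 1 or 3 (adjusted p 0.0777 to 0.156), and the TRA2B call without control library 1 or 3 or any 1 eIF3e siRNA library (adjusted p 0.0669 to 0.157, with a change of 0.25 without control library 3). SRSF2 overlaps MFSD11, which had 621 counts beside its 1389. The paralog TRA2A had 11.3, 10.0 and 10.5 CPM and then 13.1, 14.6 and 13.9 CPM, without overlap and not called (0.39 ± 0.18, adjusted p = 0.0915). SRSF2 footprints were 53.8, 48.15 and 53.7 CPM and then 52.95, 35.7 and 42.5 CPM, and those of TRA2B 27.7, 34.98 and 73.35 CPM and then 41.5, 45.85 and 57.4 CPM. Both overlap, and in footprints neither SRSF2 (-0.24 ± 0.23, adjusted p = 0.519) nor TRA2B (0.10 ± 0.27, adjusted p = 0.855) was called.

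SRSF5 was the SR gene called in footprints, which fell. SRSF5, an SR protein with a pair of RNA recognition motifs, had footprints of 126, 140 and 187 CPM after control siRNA and 94.1, 83.3 and 102 CPM after eIF3e siRNA. Its total RNA was 45.9, 50.1 and 52.9 CPM and then 51.1, 47.2 and 54.8 CPM. The footprint groups are separate and the total RNA groups overlap. The footprint change was -0.70 ± 0.17 (edgeR, adjusted p = 0.00278) and that of total RNA 0.04 ± 0.11 (adjusted p = 0.801). In the main fit of footprints per mRNA SRSF5 had -0.73 ± 0.21, the smallest p of all members, which did not pass after adjustment (adjusted p = 0.142). It passed in an alternative fit given below. SRSF11 footprints were 54.2, 44.1 and 53.2 CPM and then 37.6, 29.1 and 32.7 CPM, without overlap. That change was not called (-0.60 ± 0.24, edgeR, adjusted p = 0.0767), but it was with a minimum count of 50 (adjusted p = 0.0466).

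SRSF6 and SRSF9 were the members whose footprints lay above the controls in every treated library. SRSF6, which acts on exons of the tau gene among others, had 32.2, 31.3 and 27.6 CPM and then 52.95, 36.8 and 37.5 CPM (0.48 ± 0.26, edgeR, adjusted p = 0.213). SRSF9, a close relative of SRSF1, had 55.8, 50.9 and 47.8 CPM and then 73.4, 76.0 and 59.5 CPM (0.43 ± 0.20, adjusted p = 0.145). Neither passed the test. SRSF1, SRSF3, SRSF4, SRSF8, SRSF10 and SRSF11 were called in neither assay, with footprint changes from -0.60 to 0.46, and SRSF12 had 3 counts in total RNA and 0 footprints.

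**Figure D3:**
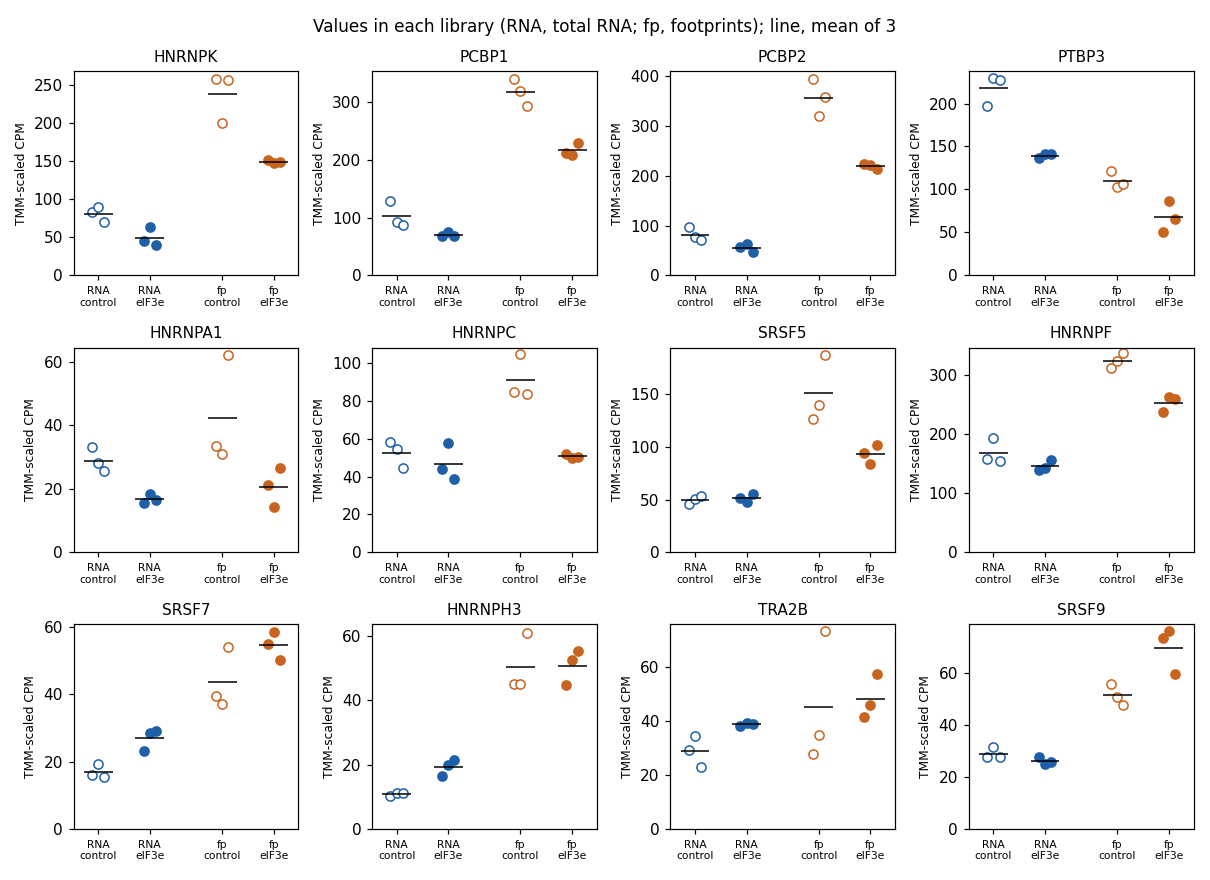
CPM scaled by TMM in each library for 12 members (open points, control siRNA; filled points, eIF3e siRNA; blue, total RNA; orange, footprints; lines, means of 3). The PCBP, HNRNPK and PTBP3 points of both assays are lower after eIF3e siRNA, HNRNPC and SRSF5 are lower in footprints with overlapping total RNA, and SRSF7, HNRNPH3 and TRA2B are higher in total RNA.

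The start regions of the remaining genes whose calls held under every alternative tried are shown next (RefSeq, GRCh38.p14, 80 bases before to 20 bases from the annotated start, first listed start). HNRNPA1 held its total RNA call too and is named only. HNRNPC lies at chr14:21269423-21269522 (minus strand), HNRNPH3 at chr10:68331613-68331712 (plus), HNRNPK at chr9:83980596-83980695 (minus), PTBP3 at chr9:112333007-112333106 (minus), SRSF5 at chr14:69767062-69767161 (plus) and SRSF7 at chr2:38751475-38751574 (minus). Capitals mark GGGCGG or its reverse complement CCGCCC, the GC box, and CCATNTT or AANATGG.
HNRNPC: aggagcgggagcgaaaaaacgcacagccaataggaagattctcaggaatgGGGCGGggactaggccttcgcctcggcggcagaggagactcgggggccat
HNRNPK: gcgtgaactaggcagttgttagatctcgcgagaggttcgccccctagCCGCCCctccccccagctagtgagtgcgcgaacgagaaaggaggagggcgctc
PTBP3: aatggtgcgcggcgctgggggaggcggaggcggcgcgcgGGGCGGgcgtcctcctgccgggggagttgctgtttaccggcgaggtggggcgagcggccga
HNRNPH3: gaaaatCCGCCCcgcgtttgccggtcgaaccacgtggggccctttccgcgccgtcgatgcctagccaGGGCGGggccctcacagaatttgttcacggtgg
SRSF7: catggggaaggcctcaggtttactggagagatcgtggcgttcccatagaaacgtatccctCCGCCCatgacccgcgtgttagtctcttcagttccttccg
SRSF5: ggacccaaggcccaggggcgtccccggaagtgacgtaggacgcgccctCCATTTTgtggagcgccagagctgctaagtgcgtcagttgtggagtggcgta
In this window, at any listed start, 20 of the 41 members matched in the promoter table used (48.8%) hold a GC box. The share was 33.4% of all 27305 genes of that table, which were not limited to genes expressed here. Some members have several listed starts, so these shares include stretches other than those printed. CCATNTT, searched after the sequences were seen, is in 8 members (19.5%) against 5.75%, and CACGTG, the E box, in 6 (14.6%) against 4.13%. CCAAT or ATTGG is in 26.8% against 19.5%, and TATAAA or TTTATA in 7.32% against 5.92%. Both strands were searched, motifs may overlap one another, and a match is a description of letters.

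Read as footprints per mRNA, the change in ribosome occupancy beyond that of the mRNA, no member passed the test in the main fit. The question is whether footprints moved apart from total RNA, and it was asked in 1 fit over the 12 siRNA libraries. With edgeR 0 of 37 members were called, against 0.309% of 9055 genes (0.144% higher, 0.166% lower), and DESeq2 called 0 as well. At an unadjusted p under 0.05, 9 members were counted, 1 higher and 8 lower, beside 12% of all genes. The values of 30 of 37 members lay below 0, with a median of -0.15, against 48.9% of all genes and a median of 0.01. An alternative edgeR fit had 1 block for each siRNA and replicate number, though no label says that a number marks a shared culture. It called HNRNPM and SRSF5 lower (adjusted p = 0.0319 and 0.0412, edgeR interaction), with 98 higher and 68 lower among all genes.

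The largest values of the main fit were as follows, none of them past its test. HNRNPM, which regulates exons in the epithelial-mesenchymal switch, had -0.87 ± 0.29 (edgeR, adjusted p = 0.219), with total RNA of 16.5, 19.9 and 26.0 CPM and then 24.9, 27.3 and 31.2 CPM. Its footprints were 108, 101 and 160.0 CPM and then 72.7, 80.4 and 116 CPM. Both overlap between the groups. HNRNPH3 had -0.83 ± 0.28 (adjusted p = 0.224), with the values given above. HNRNPD, the AU-rich element binding protein AUF1, had -0.76 ± 0.35 (adjusted p = 0.398), with footprints of 50.5, 45.0 and 63.0 CPM and then 32.9, 28.8 and 40.4 CPM. SRSF9 was highest among those with an unadjusted p under 0.05, at 0.58 ± 0.23 (adjusted p = 0.299). Of the genes that fell in both assays, 4 had values near 0: HNRNPK 0.04 ± 0.21, PCBP1 -0.01 ± 0.19, PTBP3 -0.06 ± 0.20 and PCBP2 -0.15 ± 0.18. The value of HNRNPA1, which fell in both as well, was -0.22 ± 0.37.

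Calls in the assays overlapped in part. HNRNPA1, HNRNPK, PCBP1, PCBP2 and PTBP3, 5 in all, fell in both. Another 6 were called in total RNA alone (HNRNPH2, HNRNPH3, HNRNPUL1, SRSF2, SRSF7 and TRA2B), and 4 in footprints alone (HNRNPC, HNRNPF, PTBP1 and SRSF5). As given above, no difference between the assays passed its own test in the main fit. The remaining 22 genes tested in all fits were called in none, and 7 were tested in none: HNRNPA1L2, HNRNPCL1 to HNRNPCL4, SRSF12 and the read-through HNRNPUL2-BSCL2, which is annotated as a long non-coding RNA.

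The factors that modify SR proteins and work beside them were counted from 4 lists. Of SR kinases and import receptors, 1 of 10 rose (SRPK1, the cytoplasmic SR kinase, 0.36 ± 0.10, adjusted p = 0.0112) and 3 fell in total RNA, and 0 rose and 2 fell in footprints, which is 40% and 20% called beside 37.5% and 18.5% of all genes. CLK1, the nuclear kinase that releases SR proteins from speckles, fell by 0.76 ± 0.18 in total RNA and by 2.09 ± 0.43 in footprints (edgeR, adjusted p = 0.00318 and 0.000654). TNPO3, the import receptor of SR proteins, fell by 0.35 ± 0.12 and 0.83 ± 0.23 (adjusted p = 0.0284 and 0.00852). TNPO1, which imports hnRNP A1 and its relatives, fell in total RNA (-0.56 ± 0.10, adjusted p = 0.000281) and was not called in footprints (-0.23 ± 0.16, adjusted p = 0.379).

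Of 29 SR-related proteins, 1 rose and 2 fell in total RNA, and of 28 in footprints 1 rose and 4 fell, 10.3% and 17.9% called beside the same 37.5% and 18.5%. RSRC2 and RBM39 fell in footprints (-1.72 ± 0.46 and -0.91 ± 0.22, adjusted p = 0.00672 and 0.00354), and SCAF11 in both assays (-0.50 ± 0.13 in total RNA, adjusted p = 0.00652, and -0.60 ± 0.17 in footprints, adjusted p = 0.0133). CCNL1, a cyclin of splicing kinases, fell by 0.59 ± 0.12 in total RNA and by 1.67 ± 0.20 in footprints (edgeR, adjusted p = 0.00139 and 2.25e-07). Of 38 other splicing regulators 1 rose and 7 fell in total RNA, and of 36 in footprints 2 rose and 7 fell, 21.1% and 25% called. NONO, a paraspeckle protein, fell by 0.80 ± 0.14 and 0.69 ± 0.14 (adjusted p = 0.000349 in each), RBM3, the cold-inducible protein, by 0.79 ± 0.13 and 1.00 ± 0.20 (adjusted p = 0.000202 and 0.000291), and ESRP1, the epithelial splicing regulator, by 0.59 ± 0.10 and 0.43 ± 0.12 (adjusted p = 0.000243 and 0.0116). QKI fell in total RNA (-0.69 ± 0.13, adjusted p = 0.000568).

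Of 34 core snRNP and splice-site factors 9 rose and 1 fell in total RNA, and of 33 in footprints 1 rose and 1 fell, 29.4% and 6.06% called beside 37.5% and 18.5% of all genes. The background in total RNA was 18.8% higher and 18.7% lower. PRPF4, a protein of the tri-snRNP, rose by 0.70 ± 0.13 in total RNA and by 0.83 ± 0.25 in footprints (edgeR, adjusted p = 0.000422 and 0.0159). SF3B1, which holds the branch site, fell by 0.49 ± 0.12 and 0.69 ± 0.14 (adjusted p = 0.00478 and 0.00062). PRPF31 and PRPF19 rose in total RNA (0.76 ± 0.21 and 0.51 ± 0.13, adjusted p = 0.00884 and 0.00603). None of the 4 lists had a call in footprints per mRNA in the main edgeR fit, where 1 to 3 of their genes had an unadjusted p under 0.05.

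On eIF3-bound ribosomes the same genes were read in single libraries, so the ratios have no replicate and no test. The question is which mRNAs are over- or under-represented on ribosomes that carry eIF3. The 45 genes took 0.701% of lysate footprints, 0.78% of eIF3B-bound footprints and 0.729% of eIF3E-bound footprints. Of the members, 30 had at least 100 counts in 1 of the 3 libraries. Beyond 1.5-fold in the eIF3B-bound library, 5 were higher and 6 lower, against a background of 17.2% higher and 18.8% lower among 3575 genes. In the eIF3E-bound library 3 were higher and 1 lower, against 11.2% and 14.5%. Both comparisons use the same lysate library, and intervals below cover counting error only.

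The higher eIF3B-bound values were those of HNRNPH2, HNRNPM, SRSF6, HNRNPK and HNRNPUL1. HNRNPH2 had 71 counts in the lysate, 192 in the eIF3B-bound and 90 in the eIF3E-bound library. Scaled by TMM, this is 2.27-fold higher on eIF3B-bound ribosomes (log2 1.184, 95% exact interval 0.78 to 1.60) and 0.936-fold on eIF3E-bound ones. HNRNPK had 542, 1147 and 1054 counts, 1.78-fold (log2 0.83, 0.68 to 0.98) and 1.44-fold. HNRNPM had 342, 767 and 616 counts, 1.89-fold (log2 0.91, 0.729 to 1.102) and 1.33-fold. HNRNPUL1, with 163, 334 and 333 counts, was the member past 1.5-fold upward in both, at 1.72-fold and 1.51-fold. SRSF6 had 53, 116 and 54 counts, 1.84-fold and 0.752-fold. HNRNPH2 and SRSF6 met the minimum of 100 counts in the eIF3B-bound library alone, so that their place among the higher values follows from that minimum.

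The lower eIF3B-bound values were those of HNRNPH3, HNRNPC, SYNCRIP, HNRNPDL, HNRNPD and HNRNPA2B1. HNRNPH3 had 150 lysate, 80 eIF3B-bound and 141 eIF3E-bound counts, 0.448-fold (log2 -1.16, 95% exact interval -1.57 to -0.76) and 0.694-fold. HNRNPC had 112, 61 and 117 counts, 0.458-fold (log2 -1.13, -1.60 to -0.67) and 0.771-fold. SYNCRIP, the cytoplasmic hnRNP Q that binds poly(A), had 165, 92 and 176 counts, 0.469-fold and 0.788-fold. HNRNPA2B1, with 1114, 850 and 1089 counts, had a narrow interval (0.641-fold, log2 -0.64, -0.77 to -0.51). HNRNPDL and HNRNPD had 0.518-fold and 0.594-fold.

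For eIF3E-bound ribosomes HNRNPA0 had 150 lysate, 215 eIF3B-bound and 393 eIF3E-bound counts, which is 1.94-fold for eIF3E and 1.20-fold for eIF3B. SRSF4 had 82 lysate, 140 eIF3B-bound and 174 eIF3E-bound counts, 1.57-fold for eIF3E and 1.435-fold for eIF3B. SRSF4 met the count minimum in the bound libraries and not in the lysate, so its place among the higher values follows from that minimum. PTBP3 had 117, 165 and 90 counts, 0.568-fold for eIF3E and 1.19-fold for eIF3B. TRA2A had 34 counts in the lysate and 54 in the eIF3E-bound library but 0 in the eIF3B-bound one, where the 95% exact interval of its log2 ratio to the lysate ends at -3.38. HNRNPA1 likewise had 13, 7 and 0 counts in the lysate, eIF3E-bound and eIF3B-bound libraries, with the interval of the last ending at -1.86. Both were under the count minimum, and the eIF3B-bound library had 10667 genes at 0, against 8875 in the lysate and 9005 in the eIF3E-bound library.

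**Figure D4:**
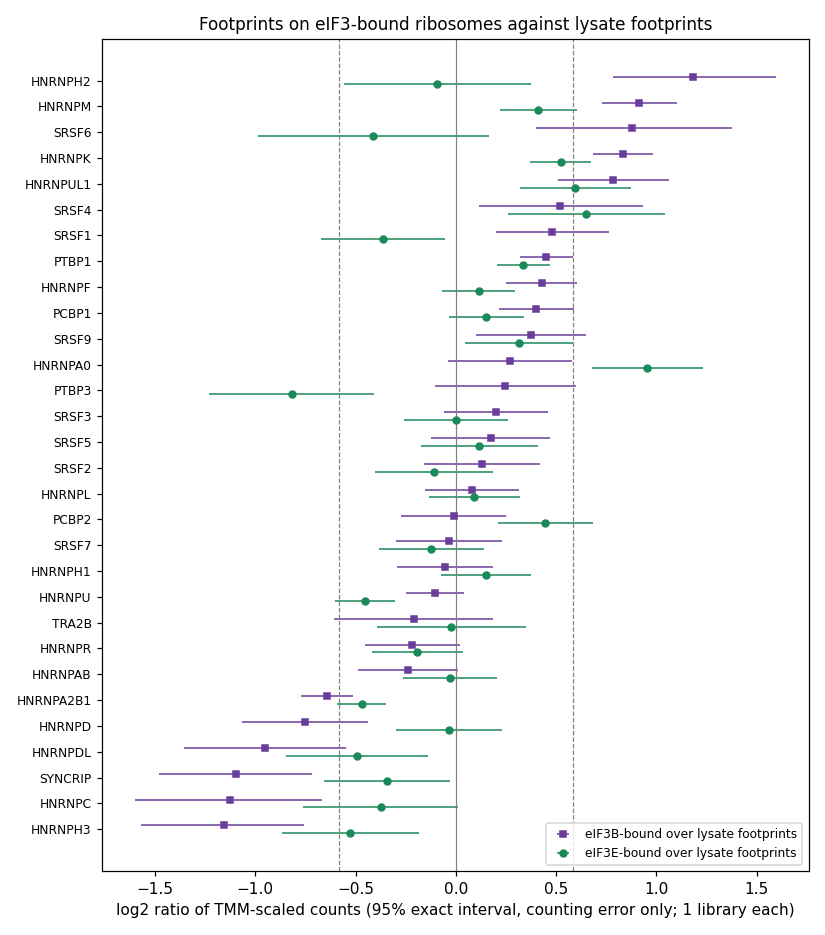
Log2 ratio of TMM-scaled counts on eIF3B-bound (squares) and eIF3E-bound (circles) ribosomes over lysate footprints for the 30 members with enough counts, with 95% exact intervals for counting error; dashed lines mark 1.5-fold, and each library is single. Among genes that met the count minimum in the lysate library, HNRNPM has 0.91 for eIF3B and HNRNPH3 -1.16.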

How the data were processed

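The authors deposited raw read counts per gene symbol for 15 libraries. Tools named in the submitters' processing notes are STAR 2.5, Bowtie 1.1.2, cutadapt 1.18 and HTSeq, with the builds GRCh38 and hg38. No source used here gives the annotation, the counted feature or the strand setting. Members and gene lists were chosen with earlier results of these data known.

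The deposited counts were tested with edgeR 4.0.16 (R 4.3.3) over all genes that passed filterByExpr with a minimum count of 10, TMM scaling, the quasi-likelihood test, two-sided, and Benjamini-Hochberg adjustment over all genes tested, at a threshold of 0.05. Each assay had its own fit, and footprints per mRNA as the interaction of assay and siRNA over 12 libraries. Single libraries were compared by TMM-scaled ratios with exact 95% intervals. Intervals and floors cover counting error only. Scripts were tested on simulated data. Alternatives were other scalings, filters, DESeq2 1.42.0, replicate blocks, leaving out each library and, added after seeing the data, pseudogene counts.

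Values are printed for every called member, for members past 1.5-fold in single libraries, and for up to 4 called genes of each pathway list. Paralogs of called members are given in part, some in 1 assay only. For HNRNPDL and HNRNPD the single libraries are given as ratios only. HNRNPM, SRSF6, SRSF9 and SRSF11 were added after their values were seen. Levels were not compared between genes, since no coding lengths were used. Replicates differed by 4.55 to 28.5 in chi-square per gene, so none was a duplicate.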

Additional observations from a re-analysis of the deposited data

Results flagged for a closer look

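SRSF9 was set apart because its treated libraries lay below the controls in total RNA and above them in footprints. By the same criterion 24.2% of all genes lay lower in total RNA and 17.1% lay higher in footprints. The share of all genes with both was not counted. Its total RNA was 27.6, 31.5 and 27.6 CPM after control siRNA and 27.5, 25.1 and 25.8 CPM after eIF3e siRNA, so that each treated library lay below each control one, the nearest pair by little. The total RNA change did not pass (-0.15 ± 0.13, edgeR, adjusted p = 0.383), and it was 0.01 with total-count scaling. Its footprints were 55.8, 50.9 and 47.8 CPM and then 73.4, 76.0 and 59.5 CPM, each treated library above each control one, and that change did not pass either (0.43 ± 0.20, adjusted p = 0.145). The difference, the change in footprints per mRNA, was 0.58 ± 0.23 on the log2 scale and did not pass the edgeR interaction test after adjustment (adjusted p = 0.299, 0.185 to 0.539 over the alternatives). Of all 9055 genes, 0.309% passed this test. SRSF9 shares its locus with GATC, which had 406 counts beside its 789 in total RNA, and the part of those reads in the result was not tested.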

How the results depend on the processing

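The total RNA calls of HNRNPA1, HNRNPH3, HNRNPK, PCBP1, PCBP2, PTBP3 and SRSF7 held under all 14 alternatives tried, and the footprint calls of HNRNPC, HNRNPK, PCBP1, PCBP2 and SRSF5 under all 12. Of 1703 values of single members under alternatives, 1547 kept direction and side of the threshold, 40 lost a call, 25 gained one, 91 uncalled values changed sign, and 0 called values reversed. Scaling by total counts moved the median of all genes by 0.16 in total RNA and by -0.21 in footprints per mRNA (log2). It gave 10 members higher and 5 lower in total RNA, with 1225 of all genes lower and 70.4% of all calls higher, against 50.1% with TMM. HNRNPA0, HNRNPAB, HNRNPM, HNRNPU, SRSF6 and TRA2A were the members added as higher, before any allowance for that shift. In total RNA a minimum count of 50 gave 7 members higher and 6 lower, beside 1855 and 1833 of 7705 genes. In footprints it gave 0 higher and 12 lower, beside 903 and 854 of 5479 genes. DESeq2's Wald test gave 2 and 5 in total RNA, beside 1628 and 1764 of 11719 genes. It lost the calls of HNRNPH2, HNRNPUL1, SRSF2 and TRA2B (adjusted p = 0.0569, 0.114, 0.134 and 0.105).

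In footprints per mRNA the calls among all genes, 13 higher and 15 lower, became 3 and 89 with total-count scaling, 22 and 20 with no filter, 18 and 28 with a minimum count of 50, and 90 and 57 with DESeq2. The cause was not tested. In the eIF3B-bound library 3 members were higher and 2 lower with at least 200 counts, and 1 and 3 past 2-fold; in the eIF3E-bound library these were 1 and 0, and 0 and 0.

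Leaving out 1 library at a time gave 2 to 5 members higher and 5 to 8 lower in total RNA (all genes 1663 to 2166 higher, 1722 to 2284 lower), 0 higher and 6 to 9 lower in footprints (668 to 879 and 546 to 821), and 0 in footprints per mRNA (0 to 21 and 0 to 29).

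No label says whether replicate numbers pair the libraries, and the correlations do not decide it. Deviations of same-numbered control and eIF3e siRNA libraries correlated at -0.02, 0.19 and 0.30 in total RNA and at 0.00, 0.03 and 0.00 in footprints. With the number as a replicate block, 5 members were higher and 6 lower in total RNA, beside 2384 and 2222 of 11719 genes. In footprints they were 0 and 7, beside 901 and 775 of 9228 genes. In footprints per mRNA 0 members were called, with 15 higher and 19 lower among all genes. This block ended the footprint calls of PTBP1 and HNRNPF (edgeR, adjusted p = 0.0503 and 0.0564). It also ended the total RNA call of HNRNPUL1 (adjusted p = 0.0657), and it added HNRNPM as higher in total RNA. With 1 block for each siRNA and number, 98 of all genes were called higher and 68 lower in footprints per mRNA, and 2 members were among the lower: HNRNPM (-0.88, adjusted p = 0.0319) and SRSF5 (-0.72, adjusted p = 0.0412). Total RNA and footprint libraries of 1 number correlated at 0.14, 0.00 and 0.13 after control siRNA and 0.04, 0.05 and 0.04 after eIF3e siRNA.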
